A study of Mus musculus with 21 samples.

Results

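Anti-IL1RAP antibody and nintedanib were compared by their effects on the skin transcriptome of mice with sclerodermatous chronic graft-versus-host disease. The comparison is the change with the antibody against its isotype control minus the change with nintedanib against its water control, gene by gene. The 4 groups hold 17 of the 21 libraries of the series. The 4 anti-IL1RAP libraries (mCAN10) are set against 4 allogeneic libraries with the isotype antibody mIgG2a LALA-PG (Allo), and the 5 nintedanib libraries (Nin) against 4 allogeneic libraries with ddH2O (Allo_H). All recipients of these groups were BALB/c mice, 8 weeks old, that had 700 cGy of total body irradiation and then marrow from B10.D2 donors. Skin was taken 7 weeks after transplantation, and treatment ran from day 21. Antibodies were injected intraperitoneally 2 times a week, first at 20 mg/kg and then at 10 mg/kg. Nintedanib was dosed at 50 mg/kg by mouth each day per the treatment protocol, while the design text gives injection at the antibody schedule for all allogeneic groups, so its route is uncertain here. The irradiated host keeps its own skin cells, and the blood-derived cells in the skin can come from host or donor. The antibody groups and the nintedanib groups had counts under partly different symbols and were treated as 2 counting runs. Only the 21830 of 64050 symbols with counts above 0 in both runs were used, and 17099 of them passed the filter on low counts and were tested.

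IL1RAP is the shared accessory receptor chain of the receptors for IL-1, IL-33 and the IL-36 cytokines. These receptors signal through MYD88 to NF-kB, and in skin the IL-36 cytokines are made mainly by keratinocytes. Nintedanib is a small molecule that blocks receptor tyrosine kinases for PDGF, FGF and VEGF and is used as an antifibrotic drug. In injured or inflamed epidermis keratinocytes switch on the stress keratins KRT6 and KRT16, small proline-rich proteins and stefin A protease inhibitors, and sebaceous glands can shrink.

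Promoter windows are shown for 5 genes called in the same direction under both treatments, because the report turns on changes that the treatments share. They were chosen after the values were seen, from the 10 genes with the largest shared rise and the 10 with the largest shared fall that are named below, and are not the 5 that changed most. Sprr1b, Serpinb3a and Stfa2 fell with both treatments, and Hamp2 and Scd3 rose with both. Each window runs from 250 bases before to 50 bases after the gene start, as given by RefSeq on GRCm38.p6, which is older than the GRCm39 build of the counts. The windows are chr3:92438730-92439029 (minus strand) for Sprr1b, chr1:107052254-107052553 (minus strand) for Serpinb3a, chr16:36408314-36408613 (minus strand) for Stfa2, chr7:30924132-30924431 (minus strand) for Hamp2 and chr19:44203038-44203337 (plus strand) for Scd3. Capitals mark matches on either strand to 4 motifs, which are the AP-1 motif TGANTCA, the STAT motif TTCNNNGAA, the C/EBP motif TTGCNNAA and the TATA motif TATAAA, read 5′ to 3′ in the direction of the gene.
Sprr1b: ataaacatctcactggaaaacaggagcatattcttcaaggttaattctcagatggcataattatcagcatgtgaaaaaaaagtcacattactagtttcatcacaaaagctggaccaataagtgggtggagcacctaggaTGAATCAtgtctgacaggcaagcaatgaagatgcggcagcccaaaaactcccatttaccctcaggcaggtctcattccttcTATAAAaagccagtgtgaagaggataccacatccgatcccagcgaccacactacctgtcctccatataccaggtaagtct
Serpinb3a: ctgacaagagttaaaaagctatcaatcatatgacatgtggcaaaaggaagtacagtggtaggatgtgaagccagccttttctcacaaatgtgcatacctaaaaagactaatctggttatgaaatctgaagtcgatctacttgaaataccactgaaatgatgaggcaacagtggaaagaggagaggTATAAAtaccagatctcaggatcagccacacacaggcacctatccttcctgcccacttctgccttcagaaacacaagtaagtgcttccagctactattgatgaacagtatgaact
Stfa2: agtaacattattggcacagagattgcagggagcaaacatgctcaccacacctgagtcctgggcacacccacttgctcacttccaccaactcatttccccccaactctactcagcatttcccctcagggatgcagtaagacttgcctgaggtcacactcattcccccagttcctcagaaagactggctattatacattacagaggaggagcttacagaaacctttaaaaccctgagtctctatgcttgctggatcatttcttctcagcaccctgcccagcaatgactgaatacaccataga
Hamp2: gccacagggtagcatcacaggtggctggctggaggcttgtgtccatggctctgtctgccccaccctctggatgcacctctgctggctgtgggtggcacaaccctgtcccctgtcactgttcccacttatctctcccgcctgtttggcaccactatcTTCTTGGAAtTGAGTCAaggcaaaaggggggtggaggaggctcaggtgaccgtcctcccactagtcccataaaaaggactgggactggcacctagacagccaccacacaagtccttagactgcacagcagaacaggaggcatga
Scd3: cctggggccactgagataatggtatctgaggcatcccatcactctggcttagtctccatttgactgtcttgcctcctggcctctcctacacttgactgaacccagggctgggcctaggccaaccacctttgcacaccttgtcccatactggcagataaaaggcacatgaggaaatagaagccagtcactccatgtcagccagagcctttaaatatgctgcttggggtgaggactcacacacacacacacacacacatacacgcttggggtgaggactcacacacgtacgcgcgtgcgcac

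The Sprr1b window holds an AP-1 match that starts 111 bases before the gene start and a TATA match 30 bases before it. That of Hamp2 holds an AP-1 match at 84 and a STAT match at 94 bases before the start, and that of Serpinb3a a TATA match at 65. The Stfa2 and Scd3 windows hold no match. Among genes with 1 window, the AP-1 letters occurred in 9.66% of 238 windows of genes that fell with both treatments, in 6.86% of 175 windows of genes that rose with both, and in 5.74% of all 10551 windows. The TATA letters occurred in 15.5%, 9.71% and 8.67% of these sets, in the same order. C/EBP letters occurred in 10.1%, 14.9% and 8.79%, and STAT letters in 10.1%, 4.57% and 7.14%. These shares describe letters in a window and were not tested.

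Both treatments changed many genes, and the genes changed by both nearly all moved the same way. The antibody changed 1972 genes (970 higher, 1002 lower), 11.5% of those tested, and nintedanib changed 1962 (1057 higher, 905 lower), also 11.5%, by edgeR's quasi-likelihood test at a Benjamini-Hochberg adjusted p under 0.05. Of these, 278 rose and 389 fell with both treatments, together 667 genes or 3.90% of all tested, which is 33.8% of the antibody's list and 34.0% of nintedanib's. The genes called in opposite directions were 3, or 0.0175%. Past the threshold with the antibody alone were 1302 genes (7.61%), and with nintedanib alone 1292 (7.56%). The 2 comparisons share no library, but the spread of each gene was estimated in 1 fit over all 21 libraries. Calls in one comparison can therefore move with libraries of the other. Without nintedanib replicates 1 and 3 the antibody changed 3066 genes. With all libraries, an unadjusted p under 0.05 held for 25.9% of genes with the antibody and 29.1% with nintedanib. Treated and control libraries did not overlap for 25.0% of genes with the antibody (12.4% higher, 12.6% lower) and for 8.73% with nintedanib (4.71% higher, 4.02% lower). Of the 970 genes that rose with the antibody, 88.2% were higher with nintedanib by sign, against 53.2% of all genes tested. Of the 1002 that fell with the antibody, 89.8% were lower with nintedanib by sign, against 46.8% of all genes.

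No gene passed the threshold for the difference between the 2 effects by edgeR's quasi-likelihood test, where the lowest adjusted p was 0.110. The 2 controls differ in what was given and in counting run. A difference between effects can therefore lie in the controls as well as in treated skin, and these were not separated. At an unadjusted p under 0.05 there were 2421 genes (14.2%), with 948 higher and 1473 lower with the antibody relative to nintedanib. DESeq2 called 378 genes on the same contrast and limma voom with quality weights called 1. By the main test 0 genes of either single-treatment class had a called difference. The share with an unadjusted difference p under 0.05 was 43.6% of the 1302 genes called with the antibody alone, 44.7% of the 1292 called with nintedanib alone and 7.05% of the 667 called in both. The first 2 of these shares rest on genes selected for passing in one comparison and missing in the other, so they describe the classes and test nothing.

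**Figure D1:**
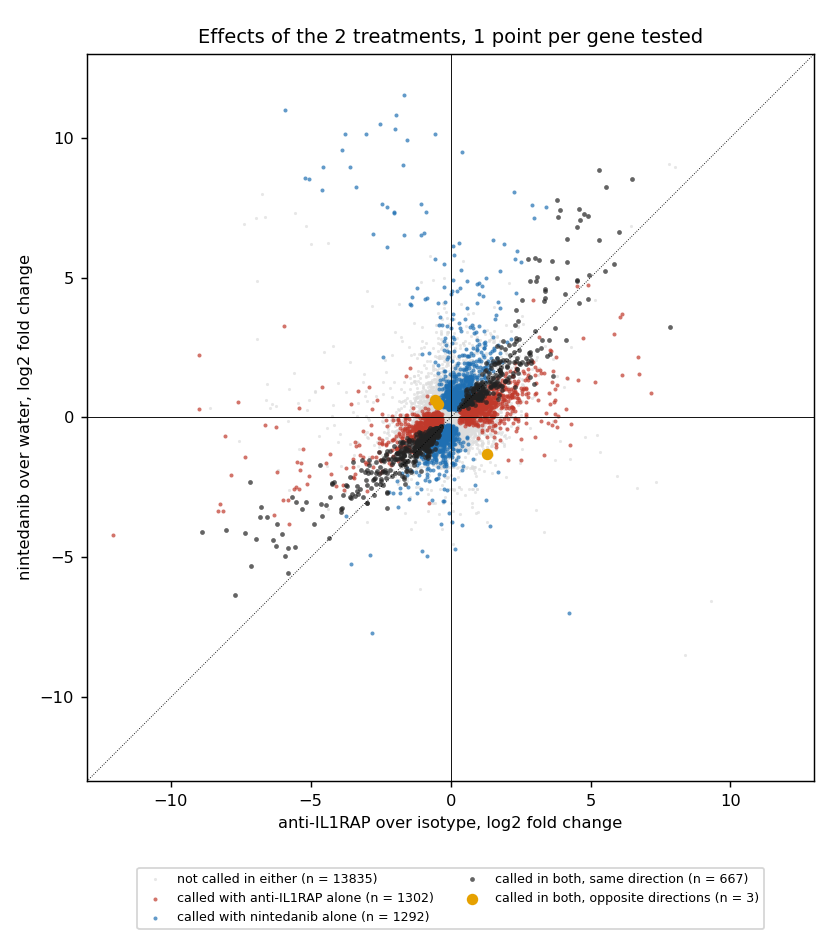
Log2 fold change of each of the 17099 genes with the antibody over isotype (x axis) and with nintedanib over water (y axis), coloured by class. The 667 genes called in both the same way lie in the lower left and upper right quadrants, and the 3 genes called in opposite directions lie in the other two.

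The median log2 fold change of the 278 genes higher in both was 1.37 with the antibody and 1.14 with nintedanib, and that of the 389 lower in both was -1.19 with the antibody and -1.06 with nintedanib. Over all genes tested the medians were -0.03 with the antibody and 0.04 with nintedanib. The 95% interval of the difference held 0 for 264 of the 278 and 358 of the 389 genes. Genes selected for passing in both the same way tend to such intervals, so these counts test nothing. The size of the log2 fold change was larger with the antibody in 165 of the 278 (59.4%) and in 262 of the 389 (67.4%). Libraries of treatment and control did not overlap in either comparison for 202 of the 278 genes, where 1.99% of all genes were so separated upwards, and for 264 of the 389, where 2.13% were so separated downwards. Selection by p on the same libraries favours such separation, so it adds no support to the calls. The counts of called genes moved with single libraries. Without water replicate 4 nintedanib changed 919 genes and 362 were shared, without water replicate 2 nintedanib changed 1133, and without nintedanib replicate 5 it changed 3059. The antibody changed 1271 genes without isotype replicate 4, 1311 without anti-IL1RAP replicate 3 and 1218 without anti-IL1RAP replicate 4. Water replicates 1 and 2 and nintedanib replicates 2, 3 and 5 were run on 2 sequencing lanes per the labels, so either split leaves few libraries per group. Nintedanib changed 296 genes (174 shared) among libraries with that note and 564 (222 shared) among those without it. Of the 667 shared genes 129 were still called the same way in both comparisons with the noted libraries alone and 186 without them. The signs of both effects were kept for 666 and 667 of these genes, on libraries that also served to select them.

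Libraries differed in ways the groups do not explain. Total counts of the 17 libraries ran from 17130264 to 29551431. Growing hair follicle markers (23 tested genes, mostly hair keratins) summed to 74749 CPM (counts scaled by library size with TMM factors) in nintedanib replicate 1 and to 24734 CPM in nintedanib replicate 3, against at most 118 CPM in the other nintedanib libraries and 103 to 510 CPM in water skin. Muscle genes summed to 222 CPM in isotype replicate 1 and to 6159 CPM or more in every other library of the 4 groups. Adipocyte genes summed to 24106 CPM in nintedanib replicate 2, where the other nintedanib libraries had 2503 to 3975 CPM. Counts of Y-linked genes were 480 in anti-IL1RAP replicate 2, 220 in nintedanib replicate 2 and 524 in nintedanib replicate 4, and 0 in the other libraries of these groups. Fits described here as without the libraries with Y-linked counts leave out only these treated libraries. The 4 syngeneic libraries of the series had 113, 154, 61 and 118 such counts and stayed in these fits. Nintedanib replicates 1, 3 and 5 also stayed, so hair transcripts weigh more in those fits. Shifts in those fits cannot be tied to the Y-linked counts. There nintedanib changed 3026 of 17300 genes and the antibody 1799, and 3960 differences had an unadjusted p under 0.05 by edgeR. With all libraries these numbers were 1962, 1972 and 2421 of 17099 genes. Without nintedanib replicates 1 and 3 they were 1380, 3066 and 1974 of 17322. Shifts of list counts between fits can therefore be part of shifts over all genes. As skin should, every library held keratinocyte and fibroblast transcripts, with at least 6095 CPM over the 10 basal keratinocyte genes and at least 2080 CPM over the 16 fibroblast markers. In bulk skin, fewer cells of a type and less RNA per cell cannot be told apart.

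**Figure D2:**
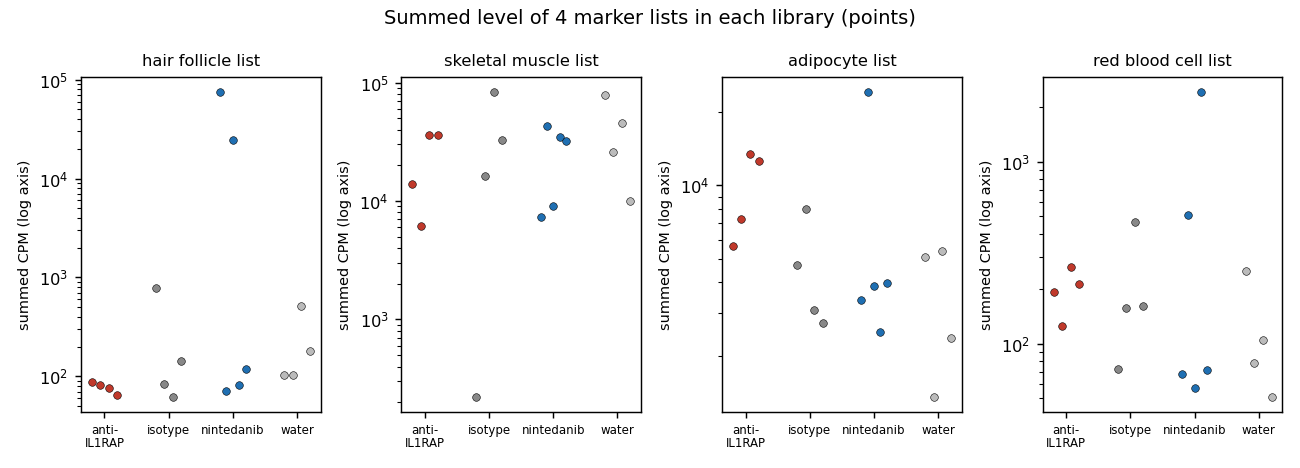
Summed CPM of the hair follicle, skeletal muscle, adipocyte and red blood cell lists in each library (points, log axis), for anti-IL1RAP, isotype, nintedanib and water skin. Nintedanib replicates 1 and 3 stand apart for hair genes, isotype replicate 1 for muscle and nintedanib replicate 2 for adipocyte genes.

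Stress and activation genes of the epidermis fell with both treatments. Of 14 activated keratinocyte genes tested, 12 fell with the antibody, 7 fell with nintedanib and 7 fell with both, where 5.86% of all genes fell with the antibody, 5.29% with nintedanib and 2.27% with both. Their median log2 fold change was -2.99 with the antibody and -2.03 with nintedanib. Summed over the list, levels were 1246 to 1727 CPM in anti-IL1RAP skin against 4618 to 10162 CPM in isotype skin, and 920 to 3216 CPM in nintedanib skin against 2506 to 12501 CPM in water skin. The difference had an unadjusted p under 0.05 and was lower with the antibody for 4 of the 14, against 8.61% of all genes, and was called for 0. The activated keratinocyte count under nintedanib was 5 of the list without nintedanib replicates 1 and 3, and 5 without the libraries with Y-linked counts.

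Krt6b, a stress keratin, had 18.5, 22.7, 15.7 and 11.7 CPM in anti-IL1RAP skin, against 2459.7, 1781, 3127 and 2314 CPM in isotype skin. In nintedanib skin it had 9.74, 10.2, 10.7, 22.6 and 217 CPM, against 2457, 739.9, 1213 and 4263 CPM in water skin. Treated and control libraries did not overlap in either comparison, and nintedanib replicate 5 stood above the other nintedanib libraries. The log2 fold change was -7.14 ± 0.79 (SE) with the antibody (adjusted p = 0.000448, edgeR) and -5.32 ± 0.75 with nintedanib (adjusted p = 0.00182), and the 95% interval of the difference ran from -4.11 to 0.48 log2 units. Of its 100-base stretches, 30.6% also occur in another gene, chiefly Krt6a, so the split of reads between both copies is uncertain.

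Krt16, the type I partner of the KRT6 keratins, was low in the same groups. It had 36.6, 83.5, 40.5 and 53.0 CPM in anti-IL1RAP skin, against 3172, 961, 3555 and 2345 CPM in isotype skin. Nintedanib skin had 87.5, 38.8, 33.7, 59.7 and 219 CPM, against 3526, 596, 794 and 3663 CPM in water skin. Its log2 fold change was -5.55 ± 0.60 with the antibody (edgeR adjusted p = 0.000237) and -4.61 ± 0.57 with nintedanib (adjusted p = 0.000688), with no overlap between groups and an interval of the difference of -2.69 to 0.80. Il24, a cytokine of the IL-10 family made by stressed keratinocytes, had 0, 0.0974, 0 and 0.0966 CPM in anti-IL1RAP skin against 4.94, 3.39, 2.58 and 1.86 CPM in isotype skin, and 0, 0, 0, 0.0562 and 0.416 CPM in nintedanib skin against 3.22, 2.51, 2.32 and 10.5 CPM in water skin. It fell in both comparisons (edgeR adjusted p = 0.00261 with the antibody and 0.0025 with nintedanib), with log2 fold changes of -5.81 ± 1.15 with the antibody and -5.57 ± 0.98 with nintedanib.

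Sprr1b, a small proline-rich protein of the cornified envelope whose promoter window is shown above, had 0.641, 5.26, 0.801 and 2.56 CPM in anti-IL1RAP skin against 585, 92.8, 409 and 434 CPM in isotype skin. With nintedanib it had 35.2, 12.9, 5.52, 2.02 and 43.4 CPM, against 573, 46.9, 219 and 528 CPM with water. It fell in both comparisons without overlap, by a log2 fold change of -7.34 ± 0.93 with the antibody and -4.11 ± 0.85 with nintedanib (edgeR adjusted p = 0.000991 and 0.0102). The difference was -3.22 ± 1.26 log2 units with a 95% interval of -5.87 to -0.58 and an adjusted p of 0.27, which missed the threshold. Serpinb3a, a clade B serpin and the second such window, had 0.641, 1.04, 0 and 0.0483 CPM in anti-IL1RAP skin and 27.0, 20.0, 31.9 and 24.5 CPM in isotype skin, and 0, 0.167, 0.443, 0.843 and 1.48 CPM in nintedanib skin and 19.8, 8.92, 2.51 and 29.6 CPM in water skin. Its groups did not overlap in either comparison (edgeR adjusted p = 0.00129 with the antibody and 0.0032 with nintedanib). Ereg, which encodes the EGF receptor ligand epiregulin, had 14.9, 13.7, 18 and 11.5 CPM against 55.5, 69.4, 63.7 and 186 CPM (anti-IL1RAP against isotype) and 30.2, 21.8, 13.9, 21.0 and 37.9 CPM against 111, 108, 94.2 and 137 CPM (nintedanib against water), and fell in both (edgeR adjusted p = 0.000198 and 0.000879).

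The late cornified envelope genes Lce3e and Lce3f and the small proline-rich gene Sprr2a1 complete the keratinocyte genes among the 10 that fell most in both. With nintedanib, Lce3e ranged over 0 to 4.16 CPM against 1.26 to 41.1 CPM in water skin and Lce3f over 0.125 to 3.33 CPM against 0.914 to 44.9 CPM, so their groups overlapped there. Their nintedanib calls, and that of Sprr2a1, were lost when 1 library was left out (water replicate 2 for Sprr2a1, water replicate 1 for Lce3f, 4 of 17 libraries for Lce3e), while the other 7 of the 10 kept both calls whichever library was left out. Among these 7, limma voom lost the nintedanib calls of Serpinb3a and Stfa2. A split by lane note lost those of Il24, Serpinb3a, Sprr1b, Stfa1 and Stfa2. Sprr2a1 shares 92.5% of its 100-base stretches with other genes, Lce3e 36.4% and Lce3f 43.0%, so reads cannot be assigned to these single copies with certainty.

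Defb14 and Sprr2h had unadjusted differences that were lower with the antibody. Defb14, a beta-defensin, had 2.97, 2.63, 2.60 and 2.41 CPM in anti-IL1RAP skin, against 14.0, 3.50, 13.2 and 14.5 CPM in isotype skin. With nintedanib it had 1.19, 2.11, 2.22, 1.91 and 0.772 CPM, against 1.09, 2.11, 1.16 and 1.94 CPM with water, where its level was already low. It fell with the antibody (log2 fold change -2.09 ± 0.46, edgeR adjusted p = 0.00776), its value with nintedanib was 0.06 ± 0.46, and the difference was -2.15 ± 0.65 (adjusted p = 0.187). Sprr2h had 0.120 to 2.05 CPM in anti-IL1RAP skin against 8.44 to 95.3 CPM in isotype skin, and 1.40 to 42.0 CPM in nintedanib skin against 6.80 to 70.4 CPM in water skin, with a difference of -3.88 ± 1.31 (adjusted p = 0.233).

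Of 23 barrier genes of the differentiated epidermis, 14 fell with the antibody, 7 with nintedanib and 6 with both, where 5.86%, 5.29% and 2.27% of all genes did, and the difference was called for 0 (unadjusted, 1 higher and 5 lower). Flg, the gene of the barrier protein filaggrin, had 45.6, 77.1, 54.6 and 35.2 CPM in anti-IL1RAP skin, against 1155, 815, 881 and 2519.9 CPM in isotype skin. It had 160.0, 85.1, 281, 240.3 and 911 CPM in nintedanib skin, against 1157, 656, 822 and 1756 CPM in water skin, where nintedanib replicate 5 lay inside the water range. Its log2 fold change was -4.66 ± 0.56 with the antibody (edgeR adjusted p = 0.000351) and -1.71 ± 0.53 with nintedanib (adjusted p = 0.0455), the nintedanib call was lost with 15 of the 17 libraries left out in turn, and the difference was -2.95 ± 0.77 (adjusted p = 0.159). Casp14, a protease of the cornifying layer, fell with the antibody (-2.85 ± 0.50, edgeR adjusted p = 0.0027) and stood at -0.28 ± 0.48 with nintedanib (adjusted p = 0.726). Without water replicate 4 the count under nintedanib was 1 of the list and the shared count 0, and without isotype replicate 4 the count under the antibody was 9. Without nintedanib replicates 1 and 3, which carry hair transcripts, 16 fell with the antibody and 0 with nintedanib. Without the 3 treated libraries with Y-linked counts, 13 fell with the antibody and 4 with nintedanib, and the difference was called for 2 of the list. The desmosomal cadherin gene Dsc1 had 83.0 to 107 CPM in anti-IL1RAP skin and 184 to 401 CPM in isotype skin, against 234 to 406 CPM in nintedanib and 271 to 567 CPM in water skin.

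Among 10 basal keratinocyte genes, Krt15, a keratin of basal and bulge cells, rose in both comparisons and 3 genes fell in both, where 1.63% of all genes rose and 2.27% fell in both. Krt15 had 2420.2, 1998, 2275 and 1406 CPM in anti-IL1RAP skin against 750.1, 195, 52.3 and 115 CPM in isotype skin, and 759.7, 1098, 1100.2, 1524 and 1329 CPM in nintedanib skin against 421, 196, 323 and 183 CPM in water skin. The groups did not overlap in either comparison (log2 fold change 2.86 ± 0.53 with the antibody and 2.05 ± 0.51 with nintedanib, edgeR adjusted p = 0.0037 and 0.0215), and the nintedanib call was lost without water replicate 2 or 4.

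Stefin A cystatins, which inhibit cysteine proteases, and chitinase-like genes fell with the antibody and in part with nintedanib. Of 10 tested, 9 fell with the antibody, 4 fell with nintedanib and the same 4 fell with both, where 5.86%, 5.29% and 2.27% of all genes did. Median log2 fold change was -7.94 with the antibody and -3.26 with nintedanib, and the unadjusted difference was lower with the antibody for 6 of 10, while 0 were called. The antibody count was 9 and the nintedanib count 3 without the libraries with Y-linked counts, where the difference was called for 2. Stfa2, whose promoter window is shown, had 0.0401, 0.552, 0 and 0.193 CPM in anti-IL1RAP skin, against 79.9, 61.8, 151 and 126 CPM in isotype skin. In nintedanib skin it had 7.0, 0.0555, 0.443, 1.07 and 11.5 CPM, against 136, 24.2, 13.6 and 95.4 CPM in water skin. Groups did not overlap in either comparison, and the difference was -4.79 ± 1.53 (95% interval -8.00 to -1.59, adjusted p = 0.188). Stfa1 had 1 count over the 4 anti-IL1RAP libraries and 318 over the 4 isotype libraries, a level 416-fold lower with a 95% counting interval of 74.2-fold to 16492-fold.

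Cstdc5, another stefin gene, had 2.21, 15.4, 1.55 and 3.57 CPM in anti-IL1RAP skin, against 1622, 1553, 1424 and 1823 CPM in isotype skin. It had 11.4, 6.94, 6.25, 86.0 and 462 CPM in nintedanib skin, against 1459, 457, 699 and 1972 CPM in water skin. The nintedanib libraries were widely spread and the highest overlapped the lowest water library, with an adjusted p of 0.0612 by edgeR. Cstdc6 had the difference of lowest p in the list, -5.80 ± 1.33 log2 units (adjusted p = 0.143); its levels were 0.10 to 2.96 CPM in anti-IL1RAP and 204 to 379.8 CPM in isotype skin, and 0.278 to 25.2 CPM in nintedanib and 11.8 to 43.1 CPM in water skin. Chil3, a chitinase-like gene of alternatively activated macrophages and neutrophils, had 4.53, 2.86, 2.05 and 1.16 CPM in anti-IL1RAP skin against 72.6, 70.8, 82.0 and 90.4 CPM in isotype skin, and 0.812, 0.944, 1.63, 2.53 and 0.772 CPM in nintedanib skin against 23.6, 29.0, 7.03 and 15.2 CPM in water skin. It fell in both without overlap (log2 fold change -4.89 ± 0.44 with the antibody and -3.79 ± 0.44 with nintedanib, edgeR adjusted p = 0.000108 and 0.000453). Without nintedanib replicate 5, 9 stefin and chitinase-like genes fell with nintedanib and 3 kept an unadjusted difference. Stfa2 shared 0 of its 100-base stretches with another gene, Stfa1 5.07% and Chil3 4.93%, and the stretches of Cstdc5 and Cstdc6 were not compared.

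Of 11 IL-1 family ligands and antagonists, 7 fell with the antibody, 5 with nintedanib and 3 with both, where 5.86%, 5.29% and 2.27% of all genes did, and Il1f10, the gene of IL-38, rose with nintedanib. The medians were -1.31 with the antibody and -1.28 with nintedanib. Il36a, an IL-36 receptor agonist, had 0.802, 2.96, 2.15 and 1.01 CPM in anti-IL1RAP skin, against 38.2, 11.7, 27.3 and 53.3 CPM in isotype skin. Nintedanib skin had 1.37, 2.00, 3.45, 2.81 and 7.24 CPM, against 19.1, 10.2, 12.3 and 26.8 CPM in water skin. Its log2 fold change was -4.22 ± 0.64 with the antibody (edgeR adjusted p = 0.00132) and -2.34 ± 0.60 with nintedanib (adjusted p = 0.0209), with no overlap in either comparison. The nintedanib call was lost without water replicate 4. The difference was -1.89 ± 0.88, with a 95% interval of -3.73 to -0.04 and an adjusted p of 0.345.

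Il36b, a second agonist, fell in both (-3.16 ± 0.47 with the antibody and -1.51 ± 0.45 with nintedanib, edgeR adjusted p = 0.000926 and 0.0357), as did the receptor antagonist gene Il36rn (-2.30 ± 0.33 and -1.30 ± 0.31, edgeR adjusted p = 0.000522 and 0.0133). The nintedanib call of Il36rn was lost without water replicate 4, and that of Il36b without water replicate 1 or 4 or nintedanib replicate 1, 2 or 3. Il36g, the third agonist, had 18.6, 38.8, 27.8 and 22.1 CPM against 142, 88.0, 98.9 and 197 CPM (anti-IL1RAP against isotype) and 9.99, 43.5, 45.5, 47.5 and 81.4 CPM against 122, 91.6, 74.6 and 158 CPM (nintedanib against water), and only the first of these passed (edgeR adjusted p = 0.00489 and 0.0592). Il1a, which encodes IL-1 alpha, fell with the antibody (-1.49 ± 0.34, edgeR adjusted p = 0.00908) and stood at -0.47 ± 0.32 with nintedanib (adjusted p = 0.344); the antibody call was lost without isotype replicate 4. Il1b fell with nintedanib (-2.56 ± 0.79, edgeR adjusted p = 0.0467), a call lost with 11 of 17 libraries left out in turn, and water replicate 4 had 54.6 CPM and the other water libraries 3.16 to 10.2 CPM. Il33 had 34.3 to 45.6 CPM in anti-IL1RAP and 22.3 to 54.5 CPM in isotype skin, and 21.2 to 86.8 CPM in nintedanib and 25.9 to 151 CPM in water skin, and passed in neither comparison (edgeR adjusted p = 0.689 and 0.534). Without water replicate 4, 1 ligand or antagonist fell with nintedanib and 0 fell with both. Without nintedanib replicates 1 and 3, 7 fell with the antibody and 0 with nintedanib, and without the libraries with Y-linked counts the counts were 7 and 2.

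On the receptor side, 6 of 16 receptor and adaptor genes fell with the antibody, 5 with nintedanib and 4 with both, against the same shares of all genes. Il1rap, the antibody's target, had 19.4, 22.6, 18.8 and 15.4 CPM in anti-IL1RAP skin, against 24.0, 27.1, 22.2 and 29.3 CPM in isotype skin. In nintedanib skin it had 23.0, 22.2, 21.1, 28.6 and 25.8 CPM, against 25.2, 37.3, 20.7 and 28.6 CPM in water skin. Neither comparison passed (log2 fold change -0.43 ± 0.17 with the antibody and -0.21 ± 0.16 with nintedanib, edgeR adjusted p = 0.105 and 0.393). Il1rl2, the IL-36 receptor chain that pairs with IL1RAP, had 64.8, 63.3, 68.8 and 63.1 CPM against 109, 93.7, 89.6 and 131 CPM (anti-IL1RAP against isotype) and 74.9, 60.4, 78.0, 64.8 and 77.1 CPM against 91.6, 119, 89.9 and 125 CPM (nintedanib against water), and fell without overlap in both (edgeR adjusted p = 0.00457 and 0.0127). Without water replicate 4 the nintedanib call of Il1rl2 was lost, and 1 receptor or adaptor gene fell with nintedanib. Without nintedanib replicates 1 and 3, 8 of the list fell with the antibody and 2 with nintedanib, and without the libraries with Y-linked counts 5 and 4. Myd88, the adaptor of these receptors, fell with both as well, with log2 fold changes of -0.65 ± 0.15 with the antibody and -0.93 ± 0.14 with nintedanib (edgeR adjusted p = 0.00908 and 0.00123). Il1r1 and Il1rl1, the IL-1 and IL-33 receptor genes, passed in neither (edgeR adjusted p of 0.473 and 0.865 for Il1r1, 0.866 and 0.869 for Il1rl1).

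Sebaceous genes rose with both treatments. Of 16 tested, 7 rose with the antibody, 9 rose with nintedanib and 7 rose with both, where 5.67%, 6.18% and 1.63% of all genes did. These counts were 7 and 9 without nintedanib replicates 1 and 3, and 7 and 10 without the libraries with Y-linked counts. Median log2 fold change was 1.82 with the antibody and 3.28 with nintedanib, and 2 genes had a lower unadjusted difference. Scd3, the sebaceous stearoyl-CoA desaturase whose promoter window is shown, had 229, 143, 109.9 and 118 CPM in anti-IL1RAP skin, against 5.09, 2.61, 1.04 and 1.73 CPM in isotype skin. It had 38.3, 71.4, 33.6, 46.0 and 131 CPM in nintedanib skin, against 2.90, 0.457, 1.28 and 1.06 CPM in water skin. Every treated library lay above every control library, by a log2 fold change of 5.83 ± 0.54 with the antibody and 5.49 ± 0.55 with nintedanib (edgeR adjusted p = 8.40e-05 and 0.000318), and the interval of the difference was -1.27 to 1.94.

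Awat2, the wax synthase of the gland, had 62.1, 34.5, 25.7 and 34.1 CPM in anti-IL1RAP skin against 2.98, 0.777, 0.397 and 0.864 CPM in isotype skin. It had 11.2, 13.8, 19.8, 12.8 and 36.8 CPM with nintedanib, against 0.580, 0.457, 0.428 and 0.749 CPM with water. The log2 fold changes were 4.94 ± 0.56 with the antibody and 5.08 ± 0.61 with nintedanib (edgeR adjusted p = 0.000188 and 0.000399), again without overlap. Pnpla5, a lipase-family gene, had 23.9 to 68.2 CPM in anti-IL1RAP and 0.0992 to 5.63 CPM in isotype skin, and 8.43 to 32.5 CPM in nintedanib and 0.286 to 1.09 CPM in water skin (edgeR adjusted p = 0.00168 and 0.00242). Far2, a fatty acyl-CoA reductase gene needed for wax alcohols, rose with both by unequal estimates of 2.76 ± 0.53 with the antibody and 5.66 ± 0.53 with nintedanib, and the difference of -2.90 ± 0.75 had an adjusted p of 0.158. It had 292, 182, 108 and 129 CPM in anti-IL1RAP skin against 46.0, 18.6, 21.9 and 18 CPM in isotype skin, and 99.8, 94.7, 86.3, 55.0 and 322 CPM in nintedanib skin against 5.09, 2.23, 1.65 and 1.44 CPM in water skin, and its exons overlap Ergic2 on the other strand. The 2 treated groups overlapped, while every isotype library lay above every water library.

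The other genes that rose most in both were nearly silent in controls. Ranking by fold change favours such genes, and they could pass the filter on low counts through treated libraries alone. Naming also required no overlap in at least 1 comparison. Low control levels and separation therefore follow in part from the choice and add no support. Serpinb6e, a clade B serpin gene, had 58.0, 32.4, 23.1 and 31.3 CPM in anti-IL1RAP skin, against 1.37, 0, 0.149 and 0 CPM in isotype skin. With nintedanib it had 10.6, 13.4, 9.51, 13.5 and 21.1 CPM, or 1199 counts against 2 in water skin, a level 441-fold higher with a 95% counting interval of 122-fold to 3643-fold. Aadacl4, an arylacetamide deacetylase-like esterase gene, had 24.1 to 70.0 CPM in anti-IL1RAP and 0 to 3.03 CPM in isotype skin, and 1394 counts in nintedanib against 3 in water skin, 342-fold higher (117-fold to 1658-fold). Its relatives AAdacl4fm3 and Aadacl2fm2 and the cytochrome P450 gene Cyp2j12 rose in both comparisons too, with no overlap, and so did the channel gene Panx3.

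Hamp2, a homologue of the iron hormone hepcidin, had 14.8, 6.85, 11.7 and 13.3 CPM in anti-IL1RAP skin, against 0.0979, 0.222, 0.248 and 0.465 CPM in isotype skin. It had 0.500, 2.55, 1.28, 2.30 and 3.15 CPM in nintedanib skin, against 0, 0, 0.122 and 0.0624 CPM in water skin, 174 counts against 3 and 42.6-fold higher (14.4-fold to 209-fold). All 10 genes kept both calls whichever of the 17 libraries was left out. The nintedanib call of Hamp2 was lost by limma voom. In a split by lane note, the nintedanib calls of Hamp2, AAdacl4fm3, Aadacl2fm2, Cyp2j12, Pnpla5 and Panx3 were lost. The fold intervals given with counts cover counting error only.

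**Figure D3:**
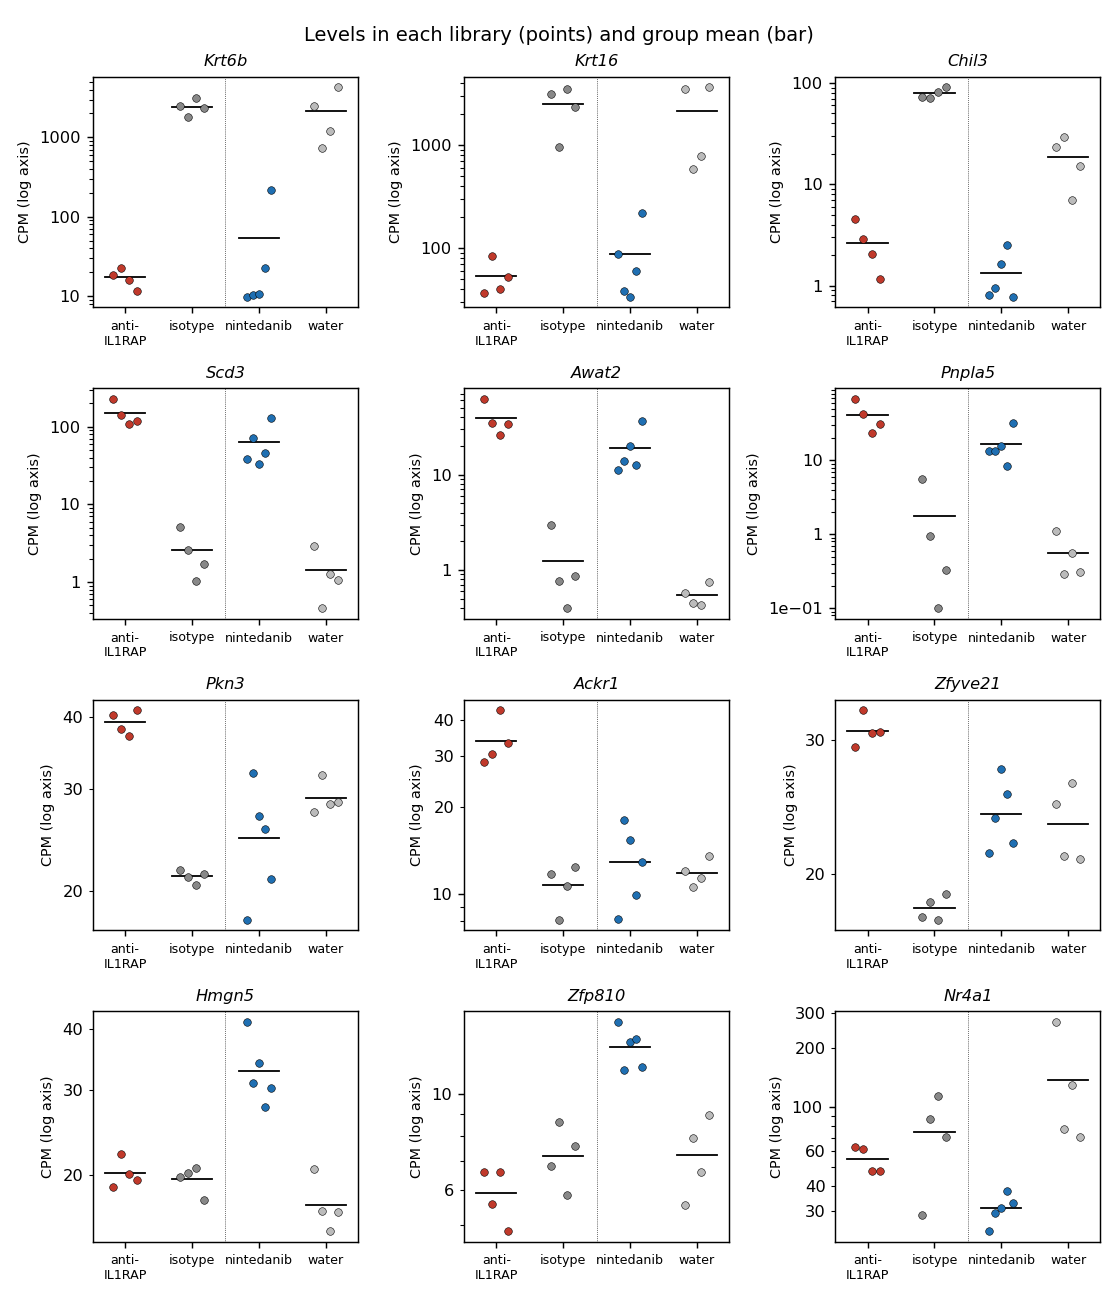
CPM (log axis) of 12 genes in each library (points, bars at group means) of anti-IL1RAP, isotype, nintedanib and water skin. Krt6b, Krt16 and Chil3 are lower and Scd3, Awat2 and Pnpla5 higher in both treatments, while Pkn3, Ackr1 and Zfyve21 stand apart in anti-IL1RAP skin and Hmgn5, Zfp810 and Nr4a1 differ between nintedanib and water skin without overlap.

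Of 31 interferon-stimulated genes, 6 fell with the antibody, 8 with nintedanib and 3 with both, where 5.86%, 5.29% and 2.27% of all genes did, with medians of -0.84 with the antibody and -0.95 with nintedanib. Without nintedanib replicates 1 and 3, 17 of these fell with the antibody and 4 with nintedanib, and without the libraries with Y-linked counts 2 and 11. With the hair follicle level as a covariate 14 fell with the antibody and 5 with nintedanib. These counts moved with single libraries, to 17 with the antibody without nintedanib replicate 1 and to 2 with nintedanib without water replicate 2, 3 or 4. Oas2, an antiviral oligoadenylate synthetase gene, had 57.2, 31.3, 39.4 and 48.9 CPM in anti-IL1RAP skin against 127, 146, 150.1 and 106 CPM in isotype skin, and 12.8, 44.5, 40.9, 55.6 and 53.2 CPM in nintedanib skin against 113, 181, 179.9 and 145 CPM in water skin (edgeR adjusted p = 0.0131 and 0.00456). Of 9 neutrophil genes tested, 2 fell with the antibody, 4 with nintedanib and 2 with both, where 5.86%, 5.29% and 2.27% of all genes did. Ly6g, Mpo, Ngp and Camp of this list were not tested. Nintedanib lowered 0 of 11 among libraries with the lane note and 2 of 10 among those without it. In the main fit the 2 that fell with both were Cxcr2, the receptor for neutrophil-attracting chemokines, and the gelatinase gene Mmp9. Cxcr2 had 0.962 to 2.44 CPM in anti-IL1RAP and 15.0 to 22.9 CPM in isotype skin, and 0.640 to 8.97 CPM in nintedanib and 8.56 to 44.5 CPM in water skin. Both nintedanib calls were lost without water replicate 4, and the antibody call of Mmp9 without anti-IL1RAP replicate 2 or 3. The matrix gene Tnc, which encodes tenascin-C, and the TGF-beta-responsive genes Thbs1 and Skil also fell with both (edgeR adjusted p of 0.00114 and 0.0301 for Tnc, 0.00461 and 0.0169 for Thbs1, 0.000499 and 0.0387 for Skil, with the antibody and with nintedanib in each pair). The nintedanib call of Tnc was lost without water replicate 2 or 4 or nintedanib replicate 1 or 3, and that of Skil without any 1 water library or nintedanib replicate 3.

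Genes with the lowest p for the difference are named because none passed. Pkn3, which encodes a protein kinase C-related kinase, had 40.3, 38.0, 37.1 and 41.0 CPM in anti-IL1RAP skin, against 21.7, 21.1, 20.5 and 21.3 CPM in isotype skin. It had 17.8, 32.0, 26.9, 25.6 and 21.0 CPM in nintedanib skin, against 27.4, 31.7, 28.3 and 28.5 CPM in water skin. All anti-IL1RAP libraries lay above all isotype libraries, while 4 of the 5 nintedanib libraries lay below all water libraries and 1 lay above them. The controls differed too, with every water library above every isotype library. The log2 fold change was 0.89 ± 0.13 with the antibody (edgeR adjusted p = 0.00054) and -0.23 ± 0.12 with nintedanib (adjusted p = 0.222), and the difference was 1.12 ± 0.18 with a 95% interval of 0.74 to 1.5 (adjusted p = 0.11). Limma voom gave it an adjusted p of 0.0216, and its exons overlap Zdhhc12 on the other strand.

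Ackr1, the atypical chemokine receptor of venular endothelium, had 28.7, 30.7, 43.4 and 33.3 CPM in anti-IL1RAP skin, against 11.7, 8.10, 10.6 and 12.4 CPM in isotype skin. With nintedanib it had 8.18, 18, 15.4, 9.89 and 12.9 CPM, against 12, 10.5, 11.4 and 13.5 CPM with water. It rose with the antibody (1.67 ± 0.20, edgeR adjusted p = 0.000165) and stood at 0.12 ± 0.19 with nintedanib, a difference of 1.55 ± 0.28 (adjusted p = 0.11), and its exons overlap Cadm3. Zfyve21, which encodes an endosomal zinc finger protein, had 29.4, 32.9, 30.7 and 30.8 CPM in anti-IL1RAP skin against 17.6, 18.4, 17.4 and 18.8 CPM in isotype skin, and 21.3 to 27.5 CPM in nintedanib skin against 20.9 to 26.4 CPM in water skin. Its difference was 0.73 ± 0.14 (adjusted p = 0.119).

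In the other direction, Tdh, which encodes threonine dehydrogenase, fell with both. It had 0.682, 0.487, 0.250 and 0.0966 CPM in anti-IL1RAP skin, against 59.4, 55.5, 49.1 and 64.5 CPM in isotype skin. It had 14.2, 0.500, 7.58, 4.83 and 14.6 CPM in nintedanib skin, against 42.6, 21.9, 33 and 68.5 CPM in water skin. The log2 fold change was -7.16 ± 0.72 with the antibody and -2.32 ± 0.56 with nintedanib (edgeR adjusted p = 0.000108 and 0.0162), and the difference of -4.85 ± 0.92 had an adjusted p of 0.119. The nintedanib call was lost without water replicate 4, and Gm17232 overlaps Tdh on the other strand. Kcnq1ot1, the imprinted antisense RNA of the Kcnq1 locus, had 1.80 to 2.32 CPM in anti-IL1RAP and 1.59 to 2.40 CPM in isotype skin, and 4.93, 3.83, 4.53, 2.92 and 4.10 CPM in nintedanib skin against 1.35, 1.14, 1.35 and 1.62 CPM in water skin. It rose with nintedanib (1.57 ± 0.22, edgeR adjusted p = 0.000803), with a difference of -1.61 ± 0.31 (adjusted p = 0.119), and reads of Kcnq1 on the other strand cannot be told apart from it. Exons of Hamp2, Krt6b, Ereg, Hmgcs1, Hspa1a, Il1a, Il1rap, Prx, Cd34, Sfrp2, Col3a1, Fn1, Pdgfra, Fgfr1 and Fgfr2 also overlap another annotated gene.

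The 3 genes called in opposite directions were Lgi2, Hddc2 and Phf14. Lgi2, a leucine-rich secreted protein gene, had 6.74, 7.60, 7.21 and 9.66 CPM in anti-IL1RAP skin, against 4.84, 2.05, 2.73 and 3.12 CPM in isotype skin. With nintedanib it had 2.62, 9.55, 3.20, 3.6 and 6.18 CPM, against 16.9, 6.97, 18.7 and 7.18 CPM with water, and these groups overlapped. Every water library lay above every isotype library for Lgi2. Hddc2, an HD-domain nucleotidase gene, had 8.90, 7.05, 7.86 and 7.63 CPM in anti-IL1RAP skin against 11.3, 10.9, 12 and 11.9 CPM in isotype skin, and 18.2, 9.99, 14.0, 14.0 and 11.6 CPM in nintedanib skin against 9.47, 8.86, 8.87 and 7.87 CPM in water skin, without overlap in either. The chromatin reader gene Phf14 was at -0.44 ± 0.13 with the antibody and 0.49 ± 0.13 with nintedanib. The differences were 2.59 ± 0.56 for Lgi2, -1.18 ± 0.22 for Hddc2 and -0.93 ± 0.19 for Phf14 (edgeR adjusted p = 0.139, 0.119 and 0.119), and each antibody call was lost with at least 5 of the 17 libraries left out in turn. The nintedanib call of Lgi2 was lost with 5 of them, that of Phf14 with 2 and that of Hddc2 with 0.

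**Figure D4:**
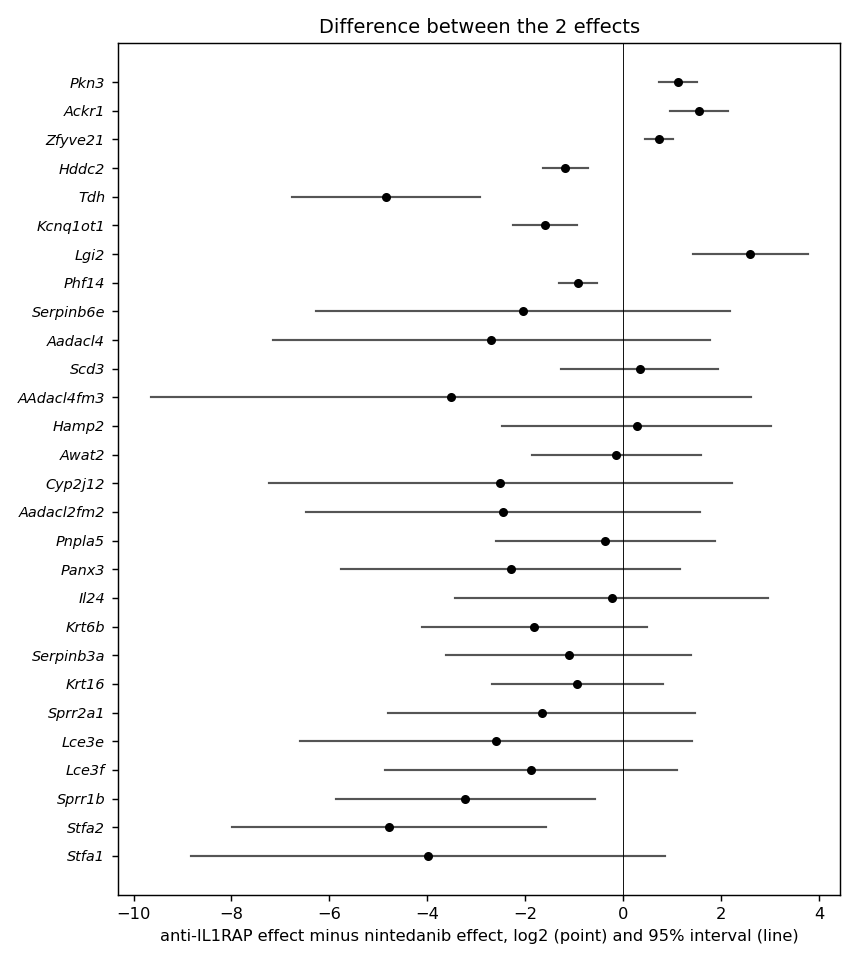
Antibody effect minus nintedanib effect in log2 units (point) with its 95% interval (line) for the genes with the lowest p, the 3 genes called in opposite directions and the 20 genes changed most by both. Intervals of Pkn3, Ackr1, Zfyve21, Hddc2, Tdh, Kcnq1ot1, Lgi2 and Phf14 lie on one side of 0, as do those of Sprr1b and Stfa2, and the other 18 cross it.

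Schwann cell and myelin genes rose with the antibody, and 0 passed with nintedanib. Of 11 tested, 6 rose with the antibody, against 5.67% of all genes, and the difference was higher with an unadjusted p under 0.05 for 8, against 5.54% of all genes. The medians were 1.27 with the antibody and -0.27 with nintedanib. Prx, which encodes the myelin protein periaxin, had 59.3, 83.3, 70.3 and 83.4 CPM in anti-IL1RAP skin, against 20.9, 22.7, 33.7 and 21.1 CPM in isotype skin. It had 15.4, 24.6, 15.7, 23.7 and 34.3 CPM in nintedanib skin, against 44.0, 24.1, 32.2 and 31.1 CPM in water skin. Its difference was 2.12 ± 0.46, with a 95% interval of 1.15 to 3.10 and an adjusted p of 0.139 by edgeR.

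Mbp, the gene of myelin basic protein, had 188, 285, 261 and 277 CPM against 73.2, 79.9, 91.8 and 88.5 CPM (anti-IL1RAP against isotype) and 36.7, 111, 55.3, 109.8 and 109 CPM against 123, 80.5, 94.6 and 108 CPM (nintedanib against water), with a difference of 1.87 ± 0.43 (adjusted p = 0.139). Pmp22 and Mal, which encode further myelin proteins, had differences of 1.35 ± 0.36 and 1.86 ± 0.46 (edgeR adjusted p = 0.158 and 0.143). Anti-IL1RAP libraries lay above isotype libraries without overlap for all 4 of these genes. Muscle genes summed to 6159 to 35909.5 CPM in anti-IL1RAP and 222 to 82907 CPM in isotype skin, and with the muscle level as a covariate 6 genes of the list rose with the antibody and 8 had a higher unadjusted difference. The antibody count was 8 without nintedanib replicates 1 and 3 and 6 without the libraries with Y-linked counts, where the difference was called for 1 gene of the list.

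Of 16 fibroblast markers, 10 rose with the antibody, and 2 rose and 1 fell with nintedanib, where Dpp4 and Fap rose with both. Of all genes 5.67% rose with the antibody, and 6.18% rose and 5.29% fell with nintedanib, and the nintedanib counts lie near these shares. The medians were 1.44 with the antibody and 0.64 with nintedanib, and 4 of 16 had a higher unadjusted difference, with 0 called. Clec3b, which encodes tetranectin, had 118, 211, 257 and 290.1 CPM in anti-IL1RAP skin, against 51.1, 23.8, 29.2 and 66.3 CPM in isotype skin. Nintedanib skin had 35.7, 87.1, 60.2, 59.0 and 58.0 CPM, against 47.9, 28.9, 64.5 and 21.7 CPM in water skin. It rose with the antibody (2.36 ± 0.36, edgeR adjusted p = 0.000882) and stood at 0.56 ± 0.34 with nintedanib, a difference of 1.80 ± 0.50 (adjusted p = 0.163). Cd34 and Sfrp2 rose with the antibody likewise, with differences of 1.11 ± 0.38 and 2.59 ± 0.87 (edgeR adjusted p = 0.222 and 0.222), and Fap rose with both (edgeR adjusted p = 0.00564 and 0.025), where the nintedanib call was lost without water replicate 2 or 4 or nintedanib replicate 1. Summed over the list, levels were 4813 to 9691 CPM in anti-IL1RAP and 2171 to 3658 CPM in isotype skin, and 2080 to 6015 CPM in nintedanib and 2644 to 3722 CPM in water skin. Adipocyte markers summed to 5634 to 13483 CPM in anti-IL1RAP and 2740.4 to 8019.6 CPM in isotype skin, and their part in the result was not tested. Leaving out water replicate 2 or 4 left 0 fibroblast genes called with nintedanib.

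The fibrillar collagen genes Col1a1, Col1a2 and Col3a1 passed in neither comparison. Col1a1 had 824, 900.2, 2310.0 and 2485 CPM in anti-IL1RAP skin, against 1294, 244, 215 and 698 CPM in isotype skin. It had 1205, 677, 2653, 1642 and 3773 CPM in nintedanib skin, against 584, 550.2, 1130.0 and 1146 CPM in water skin. The log2 fold change was 1.41 ± 0.56 with the antibody and 1.22 ± 0.54 with nintedanib (edgeR adjusted p = 0.122 and 0.148), with a difference of 0.19 ± 0.78 (95% interval -1.44 to 1.82). Col1a2 and Col3a1 had differences of 0.30 ± 0.67 and 0.52 ± 0.67 (edgeR adjusted p = 0.883 and 0.765). The fibronectin gene Fn1 and the smooth muscle actin gene Acta2 passed in neither comparison (edgeR adjusted p of 0.857 and 0.835 for Fn1, 0.547 and 0.824 for Acta2). Of 39 collagen and matrix genes, 6 rose and 1 fell with the antibody, and 1 rose and 2 fell with nintedanib. Against the shares of all genes (5.67% higher and 5.86% lower with the antibody, 6.18% and 5.29% with nintedanib), the fall with the antibody and both nintedanib counts are no higher. With the muscle level as a covariate 10 rose with the antibody and 3 with nintedanib. Comp, Col14a1 and the latent TGF-beta binding protein gene Ltbp4 rose with the antibody (edgeR adjusted p = 0.0128, 0.00695 and 0.000426) and had higher unadjusted differences, none called.

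Endothelial markers had 2 genes that rose with the antibody (Ackr1 and the apelin receptor gene Aplnr, whose call was lost with 6 of the 17 libraries left out in turn) and 2 that fell with nintedanib (Sele and Vcam1, both adhesion molecule genes), of 17 tested, where 5.67% of all genes rose with the antibody and 5.29% fell with nintedanib, so these counts lie near the background. The unadjusted difference was higher for 7, against 5.54% of all genes, and called for 0. Sele, which encodes the leukocyte adhesion molecule E-selectin, had 7.06, 5.59, 4.56 and 5.21 CPM in anti-IL1RAP and 3.03, 5.49, 5.51 and 2.26 CPM in isotype skin. It had 2.56, 3.72, 3.10, 2.30 and 3.38 CPM in nintedanib skin, against 4.19, 12.1, 7.15 and 16.7 CPM in water skin, with no overlap. Sele fell with nintedanib (-1.73 ± 0.37, edgeR adjusted p = 0.00768) and its difference was 2.19 ± 0.53 (adjusted p = 0.143). The nintedanib call of Sele was lost by limma voom and among libraries with the lane note. Without the libraries with Y-linked counts 12 of 17 endothelial genes had a higher unadjusted difference and 1 was called, and without nintedanib replicates 1 and 3 there were 4. Cd207, the Langerhans cell gene for langerin, had 17.6, 18.6, 21.5 and 22.2 CPM in anti-IL1RAP skin against 1.86, 2.77, 3.77 and 5.72 CPM in isotype skin, and 3.69, 3.44, 6.99, 21.8 and 18.1 CPM in nintedanib skin against 12.5, 22.6, 4.28 and 34.4 CPM in water skin. It rose with the antibody (2.50 ± 0.58, edgeR adjusted p = 0.0118), stood at -0.77 ± 0.54 with nintedanib and had a difference of 3.28 ± 0.80 (adjusted p = 0.143).

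Tpp2, Cisd2 and Dnajc2 had the lowest p of the difference among genes that fell with the antibody alone. Tpp2, the gene of the protease tripeptidyl peptidase 2, had 34.1, 35.3, 31.7 and 35.2 CPM in anti-IL1RAP skin, against 62.4, 64.9, 75.7 and 93.1 CPM in isotype skin. It had 62.6, 52.4, 55.4, 49.9 and 52.2 CPM in nintedanib skin, against 71.6, 66.8, 56.2 and 73.7 CPM in water skin, a difference of -0.82 ± 0.16 (edgeR adjusted p = 0.119). Cisd2, an iron-sulfur protein gene, had a difference of -0.61 ± 0.12 and the co-chaperone gene Dnajc2 one of -0.86 ± 0.19 (edgeR adjusted p = 0.119 and 0.139), and the antibody call of Dnajc2 was lost with 5 of the 17 libraries left out in turn.

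Of 18 immediate early and heat shock genes, 7 fell with nintedanib, Junb alone fell with the antibody too, and 5 had a higher unadjusted difference, with 0 called. Of all genes 5.29% fell with nintedanib, 5.86% fell with the antibody and 5.54% had a higher unadjusted difference, so the antibody count lies at the background. Nr4a1, an orphan nuclear receptor gene induced within minutes of stimulation, had 63.0, 61.2, 47.8 and 47.8 CPM in anti-IL1RAP skin, against 28.6, 87.3, 114 and 70.7 CPM in isotype skin. It had 23.5, 29.2, 30.9, 37.7 and 32.8 CPM in nintedanib skin, against 271, 77.6, 129.6 and 70.8 CPM in water skin, where every nintedanib library was lower. Its log2 fold change was -0.45 ± 0.39 with the antibody and -2.15 ± 0.37 with nintedanib (edgeR adjusted p = 0.513 and 0.00258), and the difference was 1.70 ± 0.54 (adjusted p = 0.202). Hspa1a, an inducible HSP70 gene, had 86.3, 108, 104 and 159 CPM against 77.2, 93.7, 66.4 and 108 CPM (anti-IL1RAP against isotype) and 48.3, 58.3, 49.3, 71.1 and 75.2 CPM against 90.7, 127, 115 and 153 CPM (nintedanib against water), with a difference of 1.41 ± 0.29 (adjusted p = 0.119); 56.5% of its stretches are shared with other genes, chiefly Hspa1b. The MAP kinase phosphatase gene Dusp1 also fell with nintedanib (-1.63 ± 0.33, edgeR adjusted p = 0.00637), where its value with the antibody was -0.64 ± 0.35. Without the libraries with Y-linked counts 8 of the list fell with nintedanib and the difference was called for 1.

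Hmgn5 and Zfp810 rose with nintedanib. Hmgn5, which encodes a nucleosome-binding protein, had 18.9, 22.1, 20.1 and 19.6 CPM in anti-IL1RAP and 19.8, 20.2, 20.7 and 17.7 CPM in isotype skin. It had 41.4, 30.9, 34.1, 27.6 and 30.2 CPM in nintedanib skin, against 20.5, 16.8, 15.3 and 16.8 CPM in water skin, with no overlap (log2 fold change 0.92 ± 0.12, edgeR adjusted p = 0.0005) and a difference of -0.88 ± 0.17 (adjusted p = 0.119). The zinc finger gene Zfp810 rose by 0.82 ± 0.17 with nintedanib (edgeR adjusted p = 0.00657) and the difference was -1.11 ± 0.24. In the other direction, the syntaxin gene Stx1a and the phosphatase gene Ppef2 fell with nintedanib (edgeR adjusted p = 0.0224 and 0.00946, where the Stx1a call was lost without water replicate 4) and had differences of 1.32 ± 0.29 and 3.28 ± 0.75.

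Of 22 cholesterol and fatty acid synthesis genes, 2 rose and 1 fell with the antibody and 8 rose with nintedanib, with 6 lower unadjusted differences and 0 called. Of all genes 5.67% rose and 5.86% fell with the antibody, 6.18% rose with nintedanib and 8.61% had a lower unadjusted difference, and the antibody counts lie near these shares. Hmgcs1, the synthase at the start of the cholesterol pathway, had 230.1, 208, 229.8 and 194 CPM in anti-IL1RAP and 166, 173, 158 and 286 CPM in isotype skin, and 488, 291, 391.6, 204 and 259 CPM in nintedanib skin against 179.8, 196, 167 and 179 CPM in water skin. Its log2 fold change was 0.86 ± 0.21 with nintedanib (edgeR adjusted p = 0.0176) and 0.14 ± 0.22 with the antibody. Insig1, a feedback regulator of this pathway, rose with both (edgeR adjusted p = 0.0111 and 0.00802). Without nintedanib replicates 1 and 3, which carry hair transcripts, 2 of the list rose with nintedanib, and without water replicate 2 or 3 or nintedanib replicate 1 there were 3. Leaving out the libraries with Y-linked counts, 11 rose with nintedanib, 10 had a lower unadjusted difference and 1 was called. Of 23 hair follicle genes, 14 rose with nintedanib, where 6.18% of all genes did, and 0 with the antibody, and 0 rose without the libraries that carry hair transcripts. In the fit without the libraries with Y-linked counts 21 of 24 hair genes rose with nintedanib and the difference was called for 5. Without water replicate 4, or without nintedanib replicate 1, 1 hair gene rose with nintedanib. The trichohyalin gene Tchh, for example, had 21399, 5.94, 4742, 5.39 and 10.0 CPM in nintedanib skin and 8.11, 5.43, 85.9 and 14.7 CPM in water skin.

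The kinases that nintedanib inhibits passed in neither comparison, with 0 of 14 called for each treatment and 0 for the difference (1 higher at an unadjusted p under 0.05). Kdr, the VEGF receptor 2 gene, had 21.4, 23.7, 37.5 and 34.8 CPM in anti-IL1RAP and 13.1, 21.2, 13.5 and 9.90 CPM in isotype skin, and 14.2, 56.1, 13.6, 13.3 and 21.6 CPM in nintedanib and 27.9, 12.3, 22.6 and 22.5 CPM in water skin. The adjusted p by edgeR was 0.132 with the antibody and 0.825 with nintedanib. For Pdgfra, Pdgfrb, Fgfr1, Fgfr2, Flt1 and Flt4, which encode PDGF, FGF and VEGF receptors, differences were 0.50 ± 0.62, 0.27 ± 0.37, 0.47 ± 0.26, -0.26 ± 0.33, 0.38 ± 0.51 and 0.18 ± 0.61 in that order. Of 17 ligands of these receptors, 1 rose and 2 fell with nintedanib and 2 rose with the antibody, which is near the 6.18%, 5.29% and 5.67% of all genes. Csf1, the macrophage growth factor gene, fell with nintedanib (-0.69 ± 0.19, edgeR adjusted p = 0.0298) and had 0.06 ± 0.21 with the antibody; the call was lost without water replicate 2, 3 or 4 or nintedanib replicate 3. Of 15 feedback targets of these kinases 0 passed in either comparison.

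**Figure D5:**
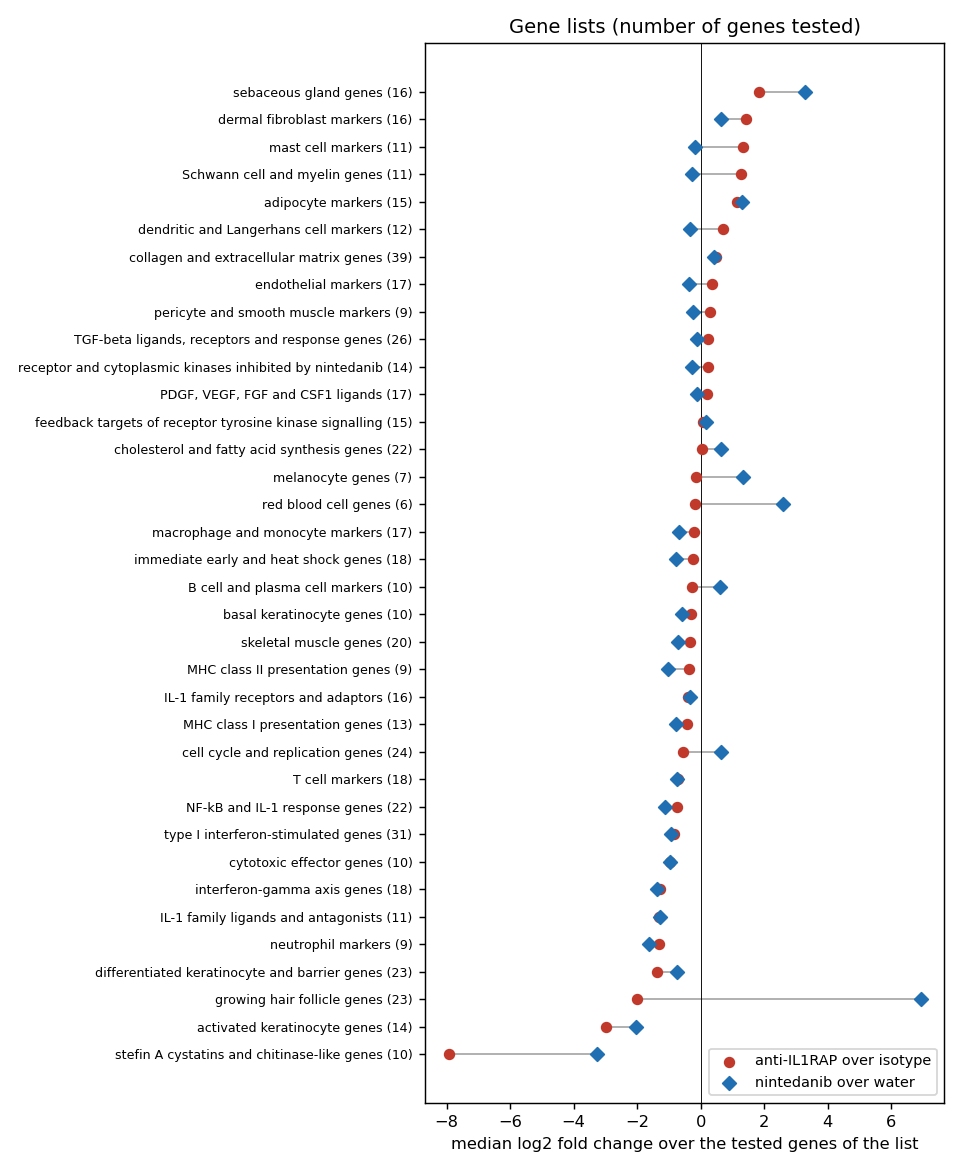
Median log2 fold change over the tested genes of each list other than the sex-linked genes with the antibody over isotype (circles) and with nintedanib over water (diamonds), with the number of genes tested. Among the lists plotted, the stefin and activated keratinocyte lists lie lowest for the antibody and sebaceous genes highest, and hair follicle genes lie at -2.01 with the antibody and 6.93 with nintedanib.

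The counts of the remaining lists stand against 5.67% of all genes called higher and 5.86% lower with the antibody, and 6.18% higher and 5.29% lower with nintedanib. Several, such as 1 of 18 or 2 of 26, lie near these shares. Of 22 NF-kB response genes, 2 fell with the antibody and 7 with nintedanib, among them the RNase gene Zc3h12a (edgeR adjusted p = 0.00134 with nintedanib), and the nintedanib count was 2 without water replicate 4 and 15 without nintedanib replicate 4. It was 12 of 23 without the libraries with Y-linked counts. Il6 and Cxcl1, which IL-1 can induce, passed in neither comparison (edgeR adjusted p of 0.336 and 0.169 for Il6, 0.884 and 0.237 for Cxcl1). Interferon-gamma axis genes had 1 of 18 that fell with the antibody and 2 with nintedanib, and MHC class I genes 0 of 13 with the antibody and 3 with nintedanib. These counts moved with the libraries used, and the fit without Y-linked counts keeps nintedanib replicates 1 and 3, which carry hair transcripts. Without the libraries with Y-linked counts nintedanib lowered 15 of 18 interferon-gamma, 10 of 13 MHC class I and 4 of 9 MHC class II genes, and without nintedanib replicate 4 alone it lowered 16 interferon-gamma and 12 MHC class I genes. Without water replicate 2 or 4 or nintedanib replicate 3 it lowered 0 genes of the interferon-gamma and MHC class I lists. With the hair follicle level as a covariate 12 of 18 interferon-gamma genes fell with the antibody and 0 with nintedanib. With all libraries no member passed with either treatment among MHC class II (9), cytotoxic (10), B and plasma cell (10) and skeletal muscle genes (20) or cell cycle genes (24), where edgeR gave an unadjusted lower difference for 6 cell cycle genes. Leaving out the libraries with Y-linked counts, 7 of 24 cell cycle genes rose with nintedanib, 19 had a lower unadjusted difference and 1 was called. In that fit 1858 of all 17300 genes rose and 1168 fell with nintedanib, and 3960 had an unadjusted difference in either direction. T cell genes had 0 of 18 with the antibody and 1 with nintedanib, macrophage genes 1 of 17 higher with the antibody and 2 lower with nintedanib (5 lower without the libraries with Y-linked counts), and adipocyte genes 1 of 15 higher with the antibody. Of 12 dendritic cell genes 2 rose with the antibody, and 1 rose and 1 fell with nintedanib. TGF-beta genes had 3 higher and 3 lower of 26 with the antibody, and 2 higher and 4 lower with nintedanib. Melanocyte genes had 1 of 7 (5 without the libraries with Y-linked counts) and red blood cell genes 2 of 6 higher with nintedanib (5 with the hair follicle level as a covariate and 0 of 5 without the libraries with Y-linked counts, where the median was -0.76 against 2.58 with all libraries), and pericyte genes 1 of 9 higher with the antibody. Mast cell genes had 1 of 11 that rose in both, Mrgprb2, a mast cell receptor gene (edgeR adjusted p = 0.000522 and 0.00398), and 1 that fell with nintedanib. With the muscle level as a covariate 5 mast cell genes rose with the antibody and 5 had a higher unadjusted difference.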

How the data were processed

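Skin RNA was sequenced as poly-A libraries with a NEBNext Ultra kit, which does not mark strand, so overlapping genes on opposite strands cannot be separated. The authors deposited whole-number read counts per gene symbol. Per the submitters' processing notes, reads were handled with FastQC, Trimmomatic, STAR and featureCounts on GRCm39, with versions that these sources do not name. Syngeneic, isotype and anti-IL1RAP columns had counts under 12094 symbols that were at 0 in all water and nintedanib columns, and the reverse held for 6185. Symbols at 0 in either run were left out, since they would give differences set by the gene names, and the symbols kept held 91.0% to 97.4% of each library's counts. Total counts per library ran from 17130264 to 29551431 in the 17 libraries.

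Counts were tested with edgeR 4.0.16 (R 4.3.3), using TMM scaling, filterByExpr with a minimum count of 10, group means over all 21 libraries and the quasi-likelihood test with Benjamini-Hochberg adjustment over the 17099 genes at 0.05. Errors of log2 fold changes are standard errors from the fit, and intervals are 95% intervals. Levels are TMM-scaled CPM computed from the deposited counts, and levels of different genes are not comparable because they are not divided by length. The labels do not say that libraries are separate mice, so p-values measure the spread between libraries, which may be technical. DESeq2 1.42.0 and limma 3.58.1 were alternatives, with other filters, covariates and each library left out in turn, and 2 alternatives without doubtful libraries were chosen after seeing the data. On simulated counts for 16915 genes, 74 of 100 genes with a 4-fold difference between effects and 92 of 100 with a 16-fold difference were recovered, with 10 false calls. The simulated counts used 1 mean per gene over all libraries and held no library unlike its group. In the data Tdh, Cstdc6 and Stfa2 had estimated differences beyond 16-fold that were not called. The simulation therefore does not give the power of the test on these data. Figures were drawn with matplotlib 3.10.9.

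Genes are named by rule, namely the 10 genes called in both with the largest smaller change in each direction, all genes called in opposite directions, up to 3 members of a list by lowest p of the difference and 3 by lowest p of the treatment comparisons, and a set of IL-1 family, kinase and collagen genes. Where a class had no call, the 3 genes of lowest p in each direction were taken. Genes outside the lists and that set had to reach a mean of 1 CPM in both runs and not overlap between groups in at least 1 comparison, and predicted genes were left out. Il1f10, Dpp4, Vcam1 and Junb were named after their values were seen. The members and the 37 gene lists were chosen with earlier results of these data known. The share of 100-base stretches found in another gene was counted in an older mouse transcript set.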

Additional observations from a re-analysis of the deposited data

Results flagged for a closer look

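In 38 of 544 groups of 4 or 5 libraries examined (6.99%), over the named genes and 5 marker lists, the highest or lowest library stood apart from the rest of its group by Dixon's criterion, where chance gives about 1 in 20. There were 7 such values in anti-IL1RAP, 9 in isotype, 11 in nintedanib and 11 in water skin. All values are CPM, and their causes were not tested. Flags of Aadacl4, AAdacl4fm3, Aadacl2fm2, Cyp2j12 and Krt34 in control skin arose where every other library of the group was at 0 CPM. The same holds for Stfa1 in anti-IL1RAP skin. A few reads suffice for a flag there, so the rate of 1 in 20 does not hold and the excess over it is not a result.

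Anti-IL1RAP replicate 1 stood apart with 248 CPM for Pmp22 and 0.241 CPM for Krt34. Anti-IL1RAP replicate 2 stood apart with 10.0 CPM for Il36b and 0.0325 CPM for Stfa1. Anti-IL1RAP replicate 3 stood apart with 34.3 CPM for Il33 and 108 CPM for Plvap. In anti-IL1RAP replicate 4 the value that stood apart was 83.0 CPM for Dsc1. Isotype replicate 1 stood apart with 1.66 CPM for AAdacl4fm3, 3.03 CPM for Aadacl2fm2 and 15.0 CPM for Cxcr2. In isotype replicate 2 the value that stood apart was 3.50 CPM for Defb14. Isotype replicate 3 stood apart with 1.09 CPM for Mrgprb2 and 44.0 CPM for Fgfr2. Isotype replicate 4 stood apart with 1111 CPM for Hrnr, 286 CPM for Hmgcs1 and 128 CPM for Fn1. Nintedanib replicate 1 stood apart with 12.8 CPM for Oas2 and 78.9 CPM for Mitf. In nintedanib replicate 2 the value that stood apart was 24106 CPM for adipocyte list. In nintedanib replicate 3 the value that stood apart was 287 CPM for Timp3. Nintedanib replicate 4 stood apart with 7.31 CPM for Cidea and 1887 CPM for Fn1. Nintedanib replicate 5 stood apart with 0.416 CPM for Il24, 217 CPM for Krt6b, 4.16 CPM for Lce3e, 31.7 CPM for Aadacl4 and 26.0 CPM for Aadacl2fm2. Water replicate 1 stood apart with 0.193 CPM for Aadacl4, 0.0644 CPM for AAdacl4fm3, 0.322 CPM for Aadacl2fm2, 180.2 CPM for Thbs1 and 14.4 CPM for Mal. Water replicate 3 stood apart with 0.0611 CPM for Cyp2j12, 89.2 CPM for Sfrp2 and 0.673 CPM for Krt34. Water replicate 4 stood apart with 63.4 CPM for Sc5d, 61.9 CPM for Skil and 284 CPM for Mmp9. Counts of Y-linked genes were 480 in anti-IL1RAP replicate 2, 220 in nintedanib replicate 2 and 524 in nintedanib replicate 4, while isotype and water libraries had 0.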

How the results depend on the processing

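Of the 667 genes called in both comparisons, 129 were still called the same way among libraries with the lane note, 186 among those without it, 360 by limma voom, 379 with the description number as a replicate block, 419 without nintedanib replicates 1 and 3, 450 without the libraries with Y-linked counts, 346 to 642 with 1 library left out in turn, and all 667 by DESeq2. The lane splits leave few libraries per group. Signs of both effects were kept there for 666 genes with the note and 667 without it. With 1 library left out in turn, counts ran from 1218 to 2547 for the antibody, 919 to 3059 for nintedanib, 362 to 885 shared, 0 to 8 opposite and 0 to 8 for the difference, with 0 to 2 antibody-specific and 0 to 1 nintedanib-specific genes (called with that treatment and for the difference). DESeq2 gave 378 for the difference, 3160 for nintedanib, 1110 shared, 17 opposite, 157 antibody-specific and 181 nintedanib-specific. Limma voom gave 1 for the difference (Pkn3), 3418 for the antibody, 785 for nintedanib, 1 opposite and 1 antibody-specific. Opposite genes were 1 without the filter, 0 in the 17 libraries alone and 5 with the lane note as a covariate. Among libraries with the lane note there were 296 for nintedanib, 174 shared and 0 opposite, and among those without it 25 for the difference, 564 for nintedanib, 222 shared, 7 opposite, 8 antibody-specific and 11 nintedanib-specific. With hair level as a covariate there were 1 for the difference and 5 opposite, and Krt72 and Krt34 turned to -1.68 and -0.10 with nintedanib. Without nintedanib replicates 1 and 3 there were 6 for the difference, 3066 for the antibody, 5 opposite, 3 antibody-specific and 2 nintedanib-specific, and Tchh turned to -2.0. Without the libraries with Y-linked counts there were 197 for the difference, 3026 for nintedanib, 17 opposite, 62 antibody-specific and 115 nintedanib-specific. That fit keeps nintedanib replicates 1 and 3, which carry hair transcripts, and replicate 5. The cause of these moves was not tested, though the common estimate of spread lets libraries of one comparison move the counts of the other.

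Same-numbered libraries did not deviate together in every pair (correlations of -0.04 to 0.36 by title for anti-IL1RAP and -0.20 to 0.04 for nintedanib), so the numbers were not taken to pair the samples. With the title number as a replicate block there were 1 for the difference, 1831 for the antibody, 2382 for nintedanib, 11 opposite and 1 nintedanib-specific. With the description number as the block there were 2 for the difference, 1001 for the antibody and 2 nintedanib-specific. Counts as low as those of Hamp2, Lce3e or Stfa1 limit the precision of their fold changes.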

Other observations

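Antigen presentation and interferon signalling genes beyond those described fell with nintedanib in numbers that depended on the libraries used: with all libraries 2 of 18 interferon-gamma, 3 of 13 MHC class I and 0 of 9 MHC class II genes fell, and without the libraries with Y-linked counts 15, 10 and 4. Nlrc5, the activator of MHC class I genes, had a log2 fold change of -0.37 ± 0.26 with the antibody and -0.90 ± 0.25 with nintedanib (edgeR adjusted p = 0.395 and 0.0246). Tap2, which encodes a peptide transporter subunit, stood at -0.51 ± 0.30 with the antibody and -1.07 ± 0.29 with nintedanib (edgeR adjusted p = 0.306 and 0.0228). The nintedanib calls of Nlrc5 and Tap2 were each lost without water replicate 2 or 4 or nintedanib replicate 3. Stat2, a signal transducer of type I interferon, had 109 to 163 CPM in anti-IL1RAP and 216 to 255 CPM in isotype skin, and 35.5 to 139.6 CPM in nintedanib and 196 to 314 CPM in water skin (edgeR adjusted p = 0.0519 and 0.00497). The ubiquitin-like gene Isg15 fell with both (edgeR adjusted p = 0.00578 and 0.0381), and its nintedanib call was lost with 5 of the 17 libraries left out in turn.

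Cd209a, a lectin gene of dermal dendritic cells, rose with both, with 1.92, 19.6, 29.6 and 38.6 CPM in anti-IL1RAP skin against 1.37, 3.16, 0.744 and 2.39 CPM in isotype skin and 7.25, 2.78, 14.6, 7.92 and 15.6 CPM in nintedanib skin against 1.09, 1.71, 2.26 and 3.00 CPM in water skin (edgeR adjusted p = 0.00331 and 0.0322). Treated and control libraries of Cd209a overlapped in both comparisons. Its nintedanib call was lost with 5 libraries left out in turn and in 8 other settings, and limma voom lost both calls. The dendritic list had a median log2 fold change of 0.69 with the antibody and -0.35 with nintedanib. C1qa, a complement gene of macrophages, fell with nintedanib (-1.51 ± 0.41, edgeR adjusted p = 0.0257) and stood at -0.52 ± 0.43 with the antibody, and its nintedanib call was lost with 4 of the 17 libraries left out in turn. Saa3, an acute-phase gene, fell with the antibody (-5.43 ± 1.02, edgeR adjusted p = 0.00648) and stood at -2.56 ± 0.96 with nintedanib (adjusted p = 0.0914). Fgf18 rose with the antibody and Fgf5 with nintedanib (edgeR adjusted p = 0.0171 and 0.0184), both of them fibroblast growth factor genes, and these calls were lost with 2 of the 17 libraries left out in turn for Fgf18 and with 4 for Fgf5.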
